A study of Arabidopsis thaliana with 12 samples.

Results

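Wounding 1 leaf of an Arabidopsis thaliana rosette raised 337 of 13356 measured genes at least 2-fold in a distant, undamaged leaf, and 73 of these changed little when current was passed into a leaf instead. These 73 genes are described here. They were chosen by their measured values: the mean log2 value of leaf 13 from wounded plants was at least 1 above that of leaf 13 from unwounded plants, and the mean of leaf 8 after current was less than 0.5 above that of leaf 8 without current. Of 78 genes that met both thresholds, 5 were left out by name, and no plastid-encoded gene met them. The wound and current changes of the 73 genes therefore follow from the choice and are given as a description, without a test.

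The name "raised by wounding only" went further than the values. In 63 of the 73 genes the current mean was still above the no-current mean. In 22 (30.1%, against 7.34% of all genes) all current arrays lay above all no-current arrays. The choice used these arrays, so the counts only describe the genes. The limma fit described below called 3 of the 73 higher after current (4.11%, against 2.38% of all genes). The genes are called here the wound-raised genes with a current change under 0.5.

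Transcripts were read on Affymetrix ATH1 arrays from soil-grown plants of accession Col-0 that were 5 weeks old and had 10 h of light a day, with 3 arrays in each of 4 groups. In the wounded group, forceps damaged the apical 40% of leaf 8, and the intact leaf 13 was taken 1 h later; leaf 13 of plants without a wound was its control. In the current group, 40 µA flowed for 10 s through a platinum wire at the petiole of leaf 8, whose blade was taken 1 h later; its control was leaf 8 with the wire and no current. No group carried a mutation or transgene, both leaf 8 groups carried the wire, and the labels do not say whether arrays came from separate plants or pools, so the spread between replicates may be technical.

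A wounded leaf of Arabidopsis sends electrical signals through the veins to leaves that share vascular connections with it. Jasmonate, a lipid-derived hormone, then accumulates in those leaves within minutes and releases transcription factors of the MYC group from their JAZ repressors. The comparison asks which genes respond to the wound in a distant leaf, and the current experiment asks which of them an injected electrical stimulus also moves.

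Values are deposited RMA expression values on the log2 scale, so a difference of 1 is 2-fold. The precision rests on 3 arrays per group: the standard error (SE, from limma) of a difference had a median of 0.11 over all genes and 0.17 over these 73. Within a group, arrays correlated at 0.991 to 0.996 (Pearson's r across features of the array). The leaf genes RCA, LHCB4.1 and LHCB4.2, for photosynthesis, had means of 12.47 to 12.96 in the 2 control groups and wound changes of -0.13 to 0.12, none called. Between the control groups LHCB4.1 was called lower in no-current leaf 8, at -0.23 (SE 0.08), while RCA and LHCB4.2 were not called.

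Distal wounding raised these genes by a median of 1.32, against a median of -0.03 over all genes, with quartiles at 1.09 and 1.60. The change was from 1 to 1.5 in 51 genes, from 1.5 to 2 in 14 and at least 2 in 8. Limma called 72 of 73 higher, where it called 5.81% of all genes, and 72 of 73 had no overlap between the wounded and the unwounded arrays, against 10.6% of all genes; the choice of genes used this contrast. In the other direction 8.42% of all genes were called and 19.7% did not overlap, with 0 of the 73 in either count. The wound change exceeded the current change by limma in 48 of the 73 genes (1.52% of all genes), and the reverse held in 0 (1.33% of all genes), which the choice also fixes. Their current change had a median of 0.30, against -0.02 over all genes, and ran from -0.68 to 0.49. As a share of the wound change, the current change had a median of 21.6%, against 46.8% in the 145 wound-raised genes with a current change from 0.5 to 1, and 58.3% in the 114 genes at or above 1 after both stimuli. These sets are defined by their current change, which favours this order.

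**Figure D1:**
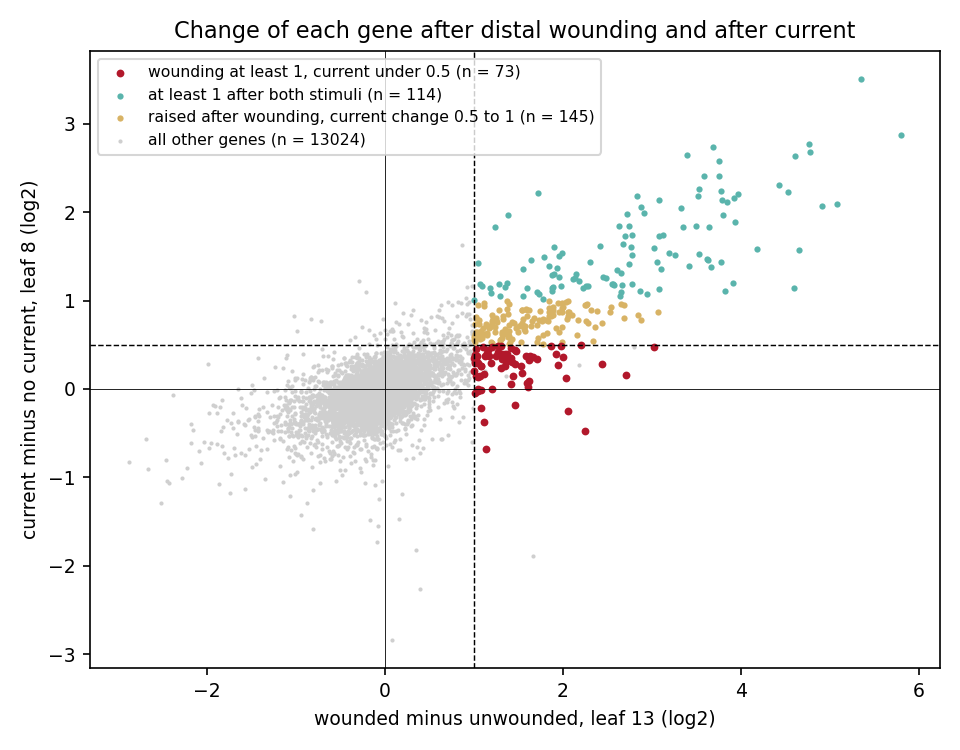
Change after distal wounding (x axis, wounded minus unwounded leaf 13, log2) against the change after current (y axis, current minus no-current leaf 8, log2), 1 point per gene, with dashed lines at the thresholds of 1 and 0.5. The 73 chosen genes lie right of the vertical and below the horizontal dashed line, and 63 of them lie above 0 on the y axis; the genes left out by name are drawn among the other genes.

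The size of the wound change and the class of the current change went together. Of 133 genes with a wound change from 1 to 1.5, 53 (39.8%) had a current change under 0.5 and 12 (9.02%) one of at least 1. Of 49 genes with a wound change of 3 or more, 1 (2.04%) was under 0.5 and 47 (95.9%) were at least 1. The median current change was 0.58 in the first of these groups and 1.89 in the second. The chosen genes are thus mostly ones with small wound changes, and 48 of 73 had a current change between 0.25 and 0.5.

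**Figure D2:**
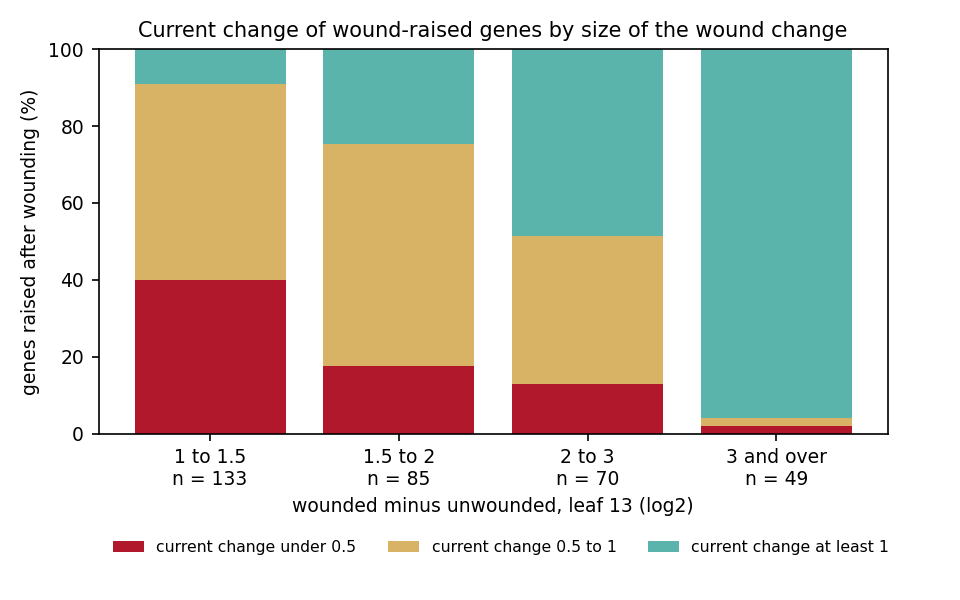
Genes raised at least 1 (log2) after distal wounding, grouped by the size of that rise (x axis), and the percent of each group in 3 classes of current change (y axis, stacked to 100). The class under 0.5 takes 39.8% of the smallest rises and 2.04% of the largest; it includes the 5 genes left out by name.

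Most of the 73 genes are known in the reference by their locus alone. A symbol was attached to 9 (12.3%, against 11.7% of all genes tested). UGT76E12 and UGT71B1 are UDP-glucosyltransferases, enzymes that attach sugar to small molecules. BSMT1 makes methyl esters of salicylic and benzoic acid, CHI is listed as a putative chitinase, LCR69 as a low-molecular-weight cysteine-rich peptide (PDF2.2, of the plant defensin family) and ATPMEPCRB as pectin methylesterase 41, which acts on the cell wall. PDC2 is a pyruvate decarboxylase of fermentation, CYP84A4 a cytochrome P450, and AR781 is named without a stated function. The other 64 carry no functional name in the tables used here, and none is given to them.

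The largest wound change was that of AT4G27590. Its values were 5.72, 6.44 and 6.08 in leaf 13 of wounded plants, against 3.05, 3.11 and 3.01 in unwounded plants, and 3.14, 3.82 and 3.18 in leaf 8 with current, against 2.91, 2.93 and 2.87 without. Wounded leaves stood far above the 9 other arrays, a difference of 3.03 (SE 0.18) or 8.15-fold, while in leaf 8 the current arrays lay above the no-current arrays, with replicate 2 the highest. The current change was 0.48 (SE 0.18), just inside the threshold, and without current replicate 1 or 3 the gene would not have been chosen.

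UGT76E12 had 4.09, 5.12 and 5.66 in wounded plants, against 2.42, 2.57 and 2.55 in unwounded plants. In leaf 8 it had 2.51, 2.59 and 2.63 with current, against 2.16, 2.37 and 2.35 without. The gene was thus near the low end of the scale in every group but the wounded one, where the arrays spread over more than 1 unit; the wound difference was 2.44 (SE 0.26). The current arrays lay just above the no-current arrays, by 0.28 (SE 0.26) in the means.

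BSMT1 was also low outside the wounded group, with 3.45, 3.77 and 4.62 in wounded plants, against 2.28, 2.20 and 2.37 in unwounded plants. With current it had 2.39, 2.86 and 2.55, against 2.14, 2.39 and 2.19 without. The wound difference was 1.67 (SE 0.22) and the wounded arrays did not overlap the unwounded ones, whereas the lowest current array was level with the highest no-current array at 2 decimals. AT1G76600 started from a higher level, with 7.02, 7.41 and 7.33 in wounded plants, against 5.57, 5.25 and 5.32 in unwounded plants. Its leaf 8 values were 5.92, 6.32 and 5.54 with current, against 5.68, 5.27 and 5.38 without, which overlap; without current replicate 3 or no-current replicate 1 the gene would not have been chosen.

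**Figure D3:**
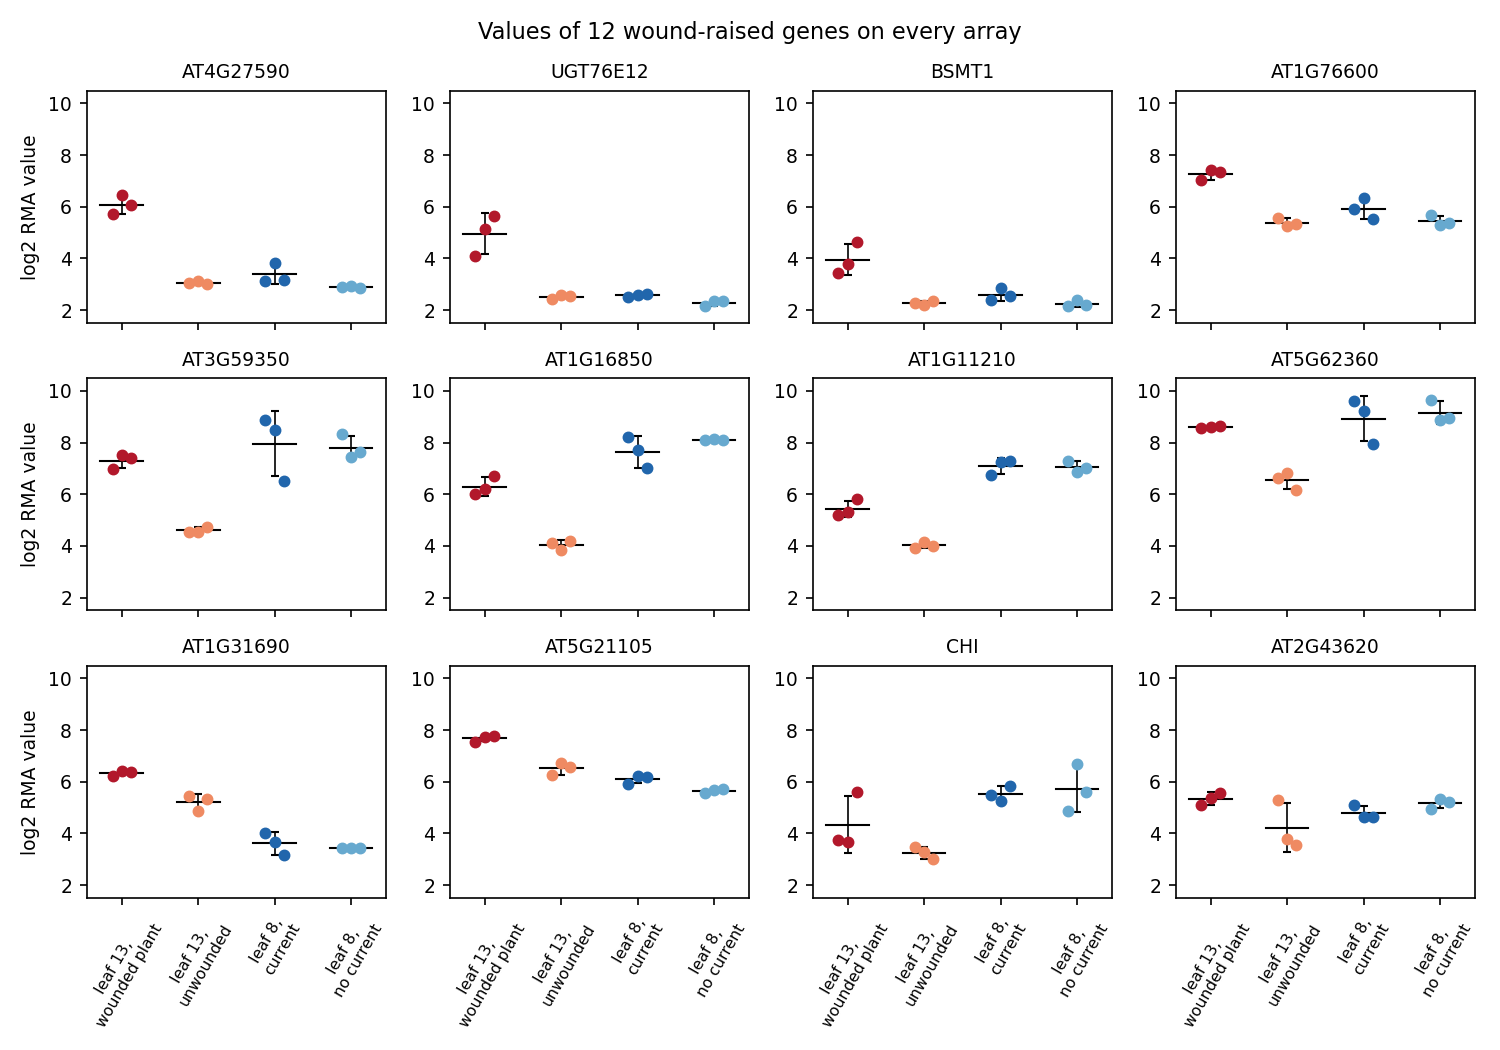
Log2 RMA values (y axis) of 12 of the genes on all 12 arrays, by group (x axis); points are arrays, horizontal lines the group means and bars ± SD (n = 3). In the upper row the wounded arrays stand above all others; in the middle row both leaf 8 groups are far above unwounded leaf 13; the lower row has AT1G31690 and AT5G21105, lower in leaf 8, and CHI and AT2G43620, each with 1 leaf 13 array apart from its group.

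Many of these genes were already higher in the wired leaf without current than in unwounded leaf 13. The difference, no-current leaf 8 minus unwounded leaf 13, had a median of 0.71, against -0.02 over all genes, 0.36 over the 114 genes raised by both stimuli and 0.40 over the 145 genes between. It was above 0 in 60 of the 73 genes and at least 1 in 25 (34.2%, against 2.91% of all genes), where the other wound-raised genes had 21 of 114 (18.4%) and 25 of 145 (17.2%). Limma called 44 of 73 higher in no-current leaf 8 (60.3%, where it called 16.6% of all genes higher) and 4 lower (where it called 16.2% of all genes lower; 2 without unwounded replicate 2). Without overlap between arrays, 45 were higher (22.1% of all genes) and 8 lower (23.3%), and 1 was lower by at least 1 (2.21%).

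That comparison shares the unwounded and the no-current arrays with the rule that chose the genes, so a low unwounded or a high no-current array favours both the choice and a high difference. The counts are given side by side, and the difference between the gene sets was not tested. Leaf position, the wire and the experiment also differ together between these control groups and cannot be told apart. Some of the gene lists used below moved with it. All 9 measured ATG8 genes of autophagy were called higher in no-current leaf 8 (median 0.77). All 4 dehydration genes (2.28), all 4 genes of amino acid breakdown (0.61), 2 of 3 senescence genes and the vascular gene SWEET11 (0.70) were called higher as well. So were all 4 rapid stress transcription factors (median 1.24; STZ at 2.25, and WRKY53 at 1.79, which is also in the senescence list) and 4 of 5 stress ubiquitin ligases (median 0.78). Both guard cell genes were called lower, FMA at -0.99 and AT1G22690 at -2.36. Other lists were mixed or did not move, where 16.6% of all genes were called higher. Called higher were 1 of 6 touch and calcium, 2 of 4 glucosinolate, 1 of 2 jasmonate synthesis and 1 of 1 ethylene genes. Of 3 jasmonate signalling genes 0 were called, nor was the 1 measured gene each of jasmonate turnover, osmolytes, salicylic acid and pathogen response, and trichomes. The part of leaf age, cell makeup or a stress response in the levels of the 73 genes was not tested, and in whole leaves fewer cells of a type and less RNA per cell cannot be told apart.

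**Figure D4:**
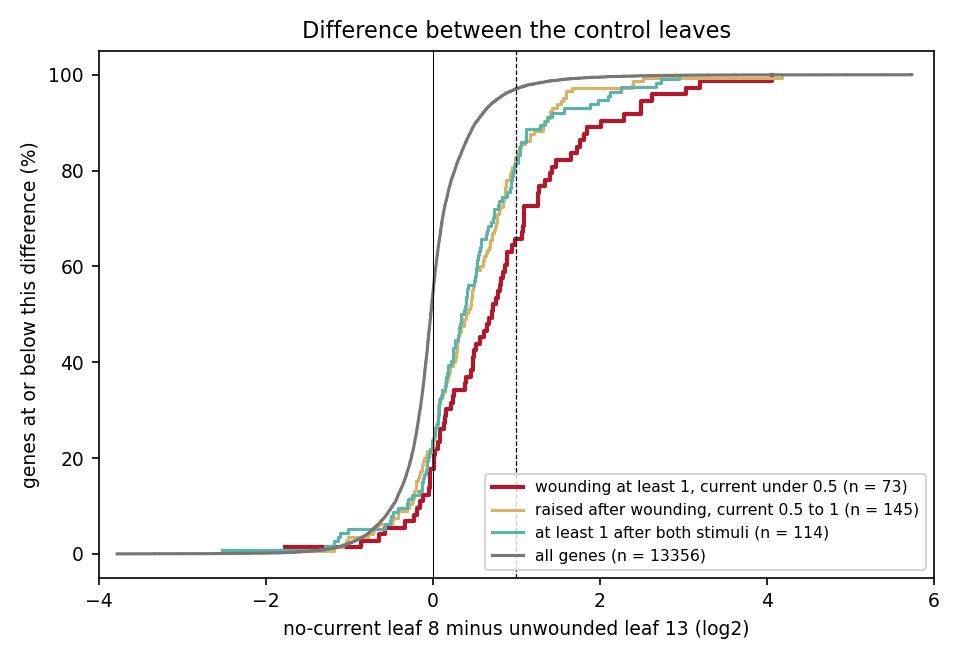
Percent of genes (y axis) at or below a given difference between the control leaves (x axis, no-current leaf 8 minus unwounded leaf 13, log2), with lines at 0 and 1. The line of the 73 genes lies right of the others over most of its range, with 34.2% of them at 1 or more, against 2.91% of all genes.

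The median difference between the control leaves did not follow the size of the wound change in steps, but the share of chosen genes at 1 or more did. At a wound change of at least 2, 6 of the 8 chosen genes had no-current leaf 8 at least 1 above unwounded leaf 13 (median 2.07), against 8 of 28 genes between (median 0.39) and 15 of 81 genes raised by both stimuli (median 0.37). With a wound change from 1.5 to 2 the counts were 5 of 14 chosen genes (median 0.61), 5 of 49 between (median 0.47) and 4 of 21 raised by both (median 0.34). With a wound change from 1 to 1.5 the counts were 14 of 51 chosen genes (median 0.67), 12 of 68 between (median 0.34) and 2 of 12 raised by both (median 0.37). The median of the chosen genes was thus lower from 1.5 to 2 than from 1 to 1.5, and in no set did it rise over all 3 sizes.

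The extreme case was AT1G16850. It had 6.01, 6.19 and 6.69 in wounded plants, against 4.13, 3.84 and 4.19 in unwounded plants. Leaf 8 had 8.23, 7.71 and 7.00 with current, against 8.09, 8.15 and 8.11 without. Every leaf 8 array was therefore above every wounded leaf 13 array; no-current leaf 8 exceeded unwounded leaf 13 by 4.07 (SE 0.24), more than the wound change of 2.25 (SE 0.24).

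AT3G59350 had 6.99, 7.53 and 7.39 in wounded plants, against 4.54, 4.53 and 4.73 in unwounded plants. Leaf 8 had 8.88, 8.47 and 6.51 with current, against 8.33, 7.44 and 7.63 without. The wound change was 2.71 (SE 0.43), the second largest of the set, and the current arrays spread on both sides of the no-current arrays; without current replicate 3 the gene would not have been chosen.

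AT1G11210 had 5.20, 5.30 and 5.80 in wounded plants, against 3.92 to 4.14 in unwounded plants. Its leaf 8 values, 6.75, 7.26 and 7.30 with current, against 7.29, 6.86 and 7.00 without, all exceeded the wounded ones. The wound change was 1.41 (SE 0.17) and the current change 0.05 (SE 0.17).

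AT5G62360 had 8.56, 8.59 and 8.63 in wounded plants, against 6.62, 6.83 and 6.16 in unwounded plants. In leaf 8 it had 9.61, 9.21 and 7.93 with current, against 9.66, 8.87 and 8.95 without. The 3 wounded arrays were nearly equal, while current replicate 3 was the lowest leaf 8 array by almost 1 unit. AT3G05640 and AT1G76590 had wound changes of 2.01 (SE 0.17) and 2.04 (SE 0.15), and no-current leaf 8 stood 2.29 and 1.85 above unwounded leaf 13. AT5G40340, with a wound change of 2.20 (SE 0.18), had 7.16, 6.76 and 7.28 in wounded plants, against 4.90, 4.89 and 4.79 in unwounded plants, and its no-current mean in leaf 8 was 1.09 above the unwounded mean.

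In 16 of the 73 genes (21.9%, against 48.0% of all genes) the no-current mean of leaf 8 was above the wounded mean of leaf 13. The same held in 4 of 114 genes raised by both stimuli and in 9 of 145 genes between. The current mean was above the wounded mean in 22 of the 73. Current minus wounded had a median of -0.37 in the 73 genes, against -0.02 over all genes. Its median was -0.36 in the genes between and -0.83 in those raised by both. The 16 genes had a median current change of 0.03 and included LCR69 and CHI, and of the loci above AT1G16850, AT3G59350, AT1G11210, AT5G62360 and AT3G05640. A high no-current mean favours both this grouping and a low current change.

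At the other end, 4 genes were lower in no-current leaf 8 by limma. AT1G31690 had 6.24, 6.41 and 6.36 in wounded plants, against 5.45, 4.88 and 5.33 in unwounded plants, and in leaf 8 it had 4.01, 3.67 and 3.15 with current, against 3.45, 3.43 and 3.45 without. No leaf 8 array reached the lowest leaf 13 array, and the control leaves differed by -1.77 (SE 0.18).

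AT5G21105 had 7.55, 7.74 and 7.76 in wounded plants, against 6.26, 6.73 and 6.57 in unwounded plants, and 5.91, 6.21 and 6.20 with current, against 5.56, 5.68 and 5.74 without. Here current did separate the arrays, by 0.44 (SE 0.13), and both leaf 8 groups were still below leaf 13. AT1G52770 and AT3G10720 differed between the control leaves by -0.64 (SE 0.20) and -0.57 (SE 0.13), with wound changes of 1.60 (SE 0.20) and 1.27 (SE 0.13).

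A further 19 genes had control leaves within 0.25 of each other. Their median wound change was 1.32 and their median current change 0.37, against 1.47 and 0.15 in the 25 genes with no-current leaf 8 at least 1 higher. The grouping shares the no-current arrays with the current change and the unwounded arrays with the wound change. A high no-current mean favours a low current change and a low unwounded mean a high wound change, so these differences are partly built in. AT4G27590, UGT76E12, BSMT1 and AT1G76600 are among the 19, and the median unwounded level of the 19 was 3.78, against 5.66 in the 25.

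**Figure D5:**
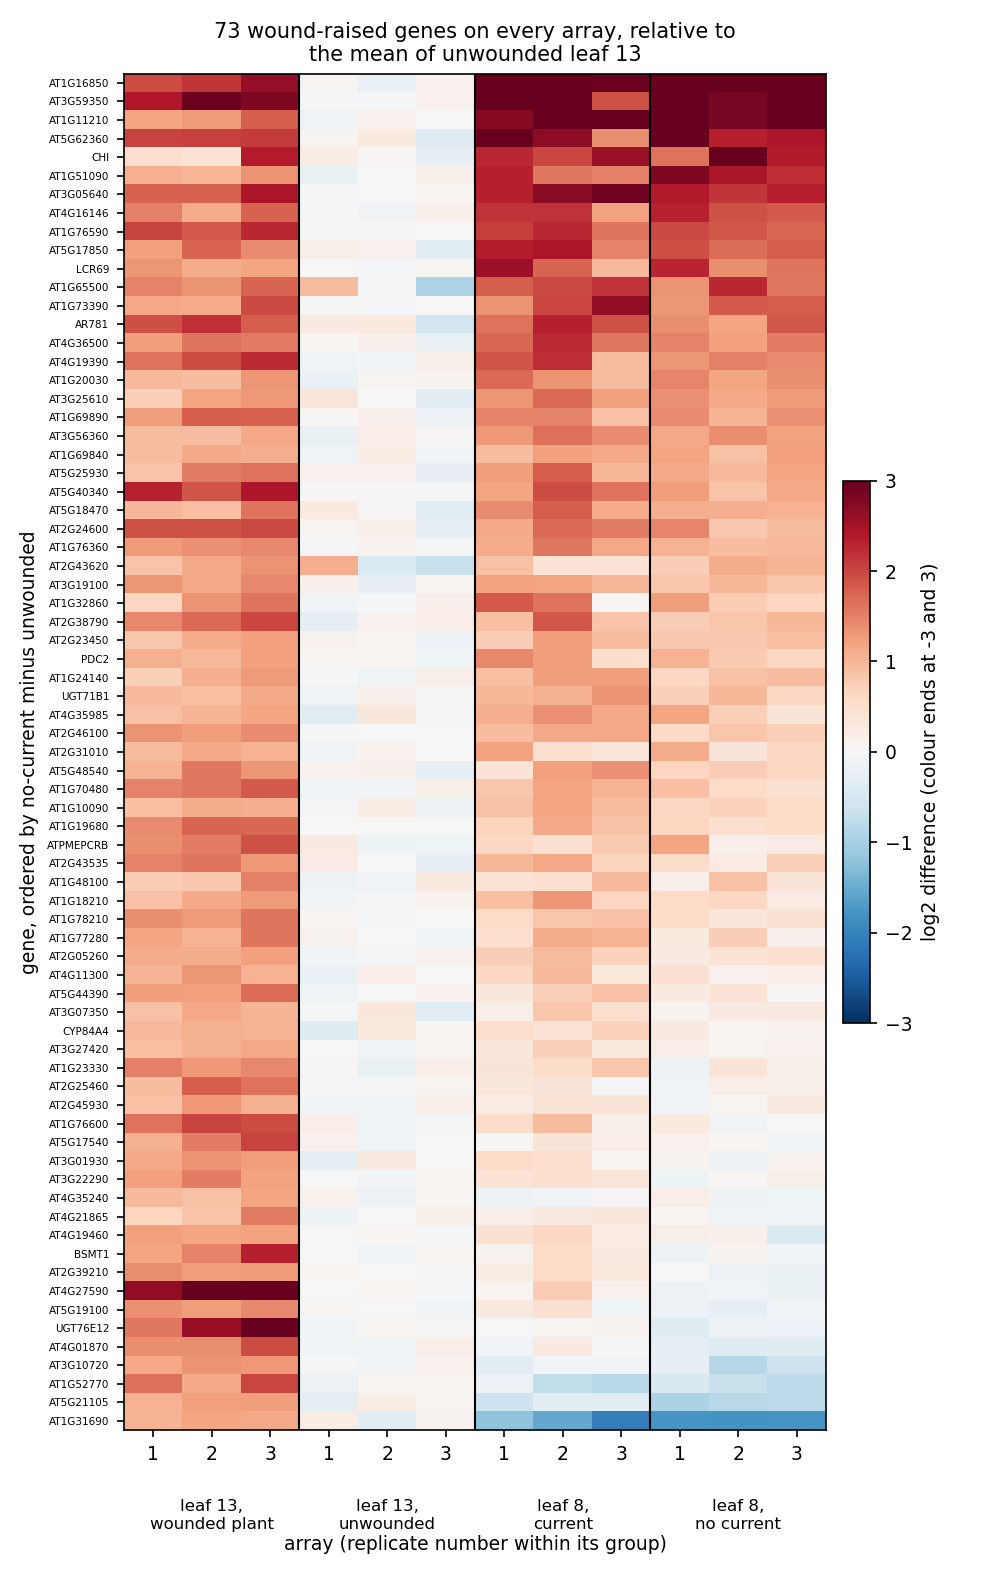
The 73 genes (rows, ordered by no-current leaf 8 minus unwounded leaf 13) on the 12 arrays (columns), coloured by the log2 difference from the mean of unwounded leaf 13. All wounded columns are red by choice of the genes; both leaf 8 groups are red in the upper rows, near white in the lower ones and blue for the last 4 genes in no-current leaf 8.

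After current, limma called 3 of the 73 genes higher (4.11%, where it called 2.38% of all genes higher), with 31 higher at an unadjusted p under 0.05 (6.24% of all genes), and 0 lower (where it called 1.58% of all genes lower), with 1 lower at an unadjusted p under 0.05 (7.92% of all genes). The 3 are AT2G39210 at 0.48 (SE 0.10), AT2G05260 at 0.41 (SE 0.10) and AT2G46100 at 0.37 (SE 0.10). AT2G46100 had 9.52, 9.73 and 9.76 with current, against 9.17, 9.43 and 9.31 without, and the groups did not overlap. The count was 0 when the comparison was fitted alone or without no-current replicate 1 or 3, 1 without current replicate 2 or 3 or with quantile normalization, and 13 with array weights. The count of genes called lower was 2 without current replicate 1 and 1 with array weights.

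The current mean was below the no-current mean in 10 genes. Of these, 7 had no-current leaf 8 at least 1 above unwounded leaf 13, as did 25 of all 73 genes. A high no-current mean favours both, so the overlap is partly built in. AT1G51090 was lowest at -0.68 (SE 0.20), with 8.94, 8.17 and 8.12 with current, against 9.41, 9.04 and 8.82 without; current replicate 1 overlapped the no-current arrays. AT1G16850 followed at -0.47 (SE 0.24), then AT2G43620 at -0.38 (SE 0.33) and AT5G62360 at -0.24 (SE 0.33). In none of the 73 genes did all current arrays lie below all no-current arrays, against 9.59% of all genes.

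Current replicate 3 weighed on these values. Without it, 5 of the 10 means stayed below 0, AT1G16850 was at -0.15 and AT5G62360 at 0.25; without replicate 1 or 2, 9 stayed below 0. In the 25 genes with high no-current levels, replicate 3 was the lowest current array in 15. In the other 48 genes it was the lowest in 18 and replicate 1 in 27, while replicate 2 was the highest current array in 39 of all 73. The median distance of the 73 genes from the no-current mean was 0.22, 0.44 and 0.17 in current replicates 1, 2 and 3.

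Wounded arrays also differed. The median of the 73 genes was 1.18, 1.28 and 1.45 above the unwounded mean in wounded replicates 1, 2 and 3, and replicate 3 was the highest wounded array in 47 genes and replicate 1 in 4. In the no-current arrays the median distance from the unwounded mean was 0.72, 0.75 and 0.62.

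In CHI and AT2G43620, 1 array stood apart from its group. CHI had 3.74, 3.65 and 5.61 in wounded plants, against 3.47, 3.27 and 2.99 in unwounded plants. Wounded replicate 3 alone stood high, and without it or without unwounded replicate 3 the gene would not have been chosen; it is the 1 gene that limma did not call. In leaf 8 it had 5.50, 5.25 and 5.83 with current, against 4.88, 6.70 and 5.62 without, so every leaf 8 array lay above all leaf 13 arrays but wounded replicate 3.

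AT2G43620 is the 1 gene whose wounded arrays overlapped the unwounded ones. It had 5.08, 5.35 and 5.58 in wounded plants, against 5.31, 3.79 and 3.56 in unwounded plants, where replicate 1 stood apart. Its wound change was 1.12 (SE 0.33), and it would not have been chosen without wounded replicate 3 or unwounded replicate 2 or 3.

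LCR69 had 9.34, 9.13 and 9.18 in wounded plants, against 7.98, 7.94 and 8.10 in unwounded plants. In leaf 8 it had 10.56, 9.76 and 8.97 with current, against 10.29, 9.40 and 9.62 without. The wound change was 1.21 (SE 0.29) on tight leaf 13 arrays, and the leaf 8 arrays of both groups overlapped each other and lay mostly above leaf 13.

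PDC2 had 8.59, 8.48 and 8.74 in wounded plants, against 7.58, 7.58 and 7.40 in unwounded plants. Leaf 8 had 8.97, 8.78 and 8.06 with current, against 8.57, 8.30 and 8.15 without, again overlapping. ATPMEPCRB averaged 5.55 ± 0.26 in wounded plants and 3.94 ± 0.23 in unwounded plants (SD, n = 3 each), and its leaf 8 arrays, 4.55, 4.39 and 4.72 with current, against 5.11, 4.09 and 4.18 without, overlapped as well.

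AR781 had a wound change of 1.98 (SE 0.23) and a current change of 0.49 (SE 0.23), close under the threshold. CYP84A4 and UGT71B1 had wound changes of 1.02 (SE 0.14) and 1.01 (SE 0.12), close above it, and current changes of 0.38 (SE 0.14) and 0.35 (SE 0.12).

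None of the 73 genes belongs to any of 20 lists of known pathways and marker genes. The lists hold 323 entries, of which 54 genes were measured, that is, had a single-gene probe set in the platform's table. The other listed genes are not analysed here. That table gave no gene for 8730 of 22810 probe sets and several genes for 503. A listed gene that counts as not measured may therefore still have a probe set on the array. With 54 listed genes measured and 73 of 13356 genes chosen, few matches could be looked for. LTI30, a listed gene, met both thresholds and was left out by name. The lack of matches therefore says nothing about the pathways of the 73 genes. In jasmonate synthesis OPCL1, 1 of 2 measured genes, was called higher after wounding and after current, as was JMT, the 1 measured gene of turnover. Of 3 jasmonate signalling genes, limma called 2 higher after wounding and 1 after current. The signalling gene called after wounding alone was the transcription factor MYC3, at 0.83 after wounding and 0.30 after current. Of the genes called after both stimuli, OPCL1 changed by 1.83 (SE 0.19) after current, JMT by 1.74 (SE 0.15) and the transcription factor ORA47 by 1.83 (SE 0.23). Of 4 measured genes of glucosinolate synthesis and transport, limma called UGT74B1 and the transporters GTR1 and GTR2 higher after both stimuli. It called BCAT4 after neither. Limma called 3 of 5 stress ubiquitin ligases higher after wounding and 2 after current, and 1 of 1 salicylic acid and pathogen gene after both. After each stimulus 1 of 4 rapid stress transcription factors and 1 of 6 touch and calcium genes were called higher, and 1 other touch and calcium gene was called lower after wounding. Of the osmolyte, ethylene and trichome lists 1 gene each was measured and not called after either, and of the dividing cell and root lists 0. The vascular gene SWEET11 was called lower after wounding, at -0.48 (SE 0.15), and was not called after current, at -0.19 (SE 0.15); its part in the wound changes of the 73 genes was not tested. Of the 9 ATG8 genes, 4 were called lower after wounding and 1 after current.

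In the dehydration list, wounded plants and both leaf 8 groups were high together. All 4 measured genes of 32 were called higher after wounding (median 0.86) and 0 in either direction after current (median -0.35, 3 of them below 0). LTI30, a dehydrin that meets both thresholds and was left out by name, was at 2.18 (SE 0.20) after wounding and 0.27 (SE 0.20) after current, with no-current leaf 8 at 2.70 above unwounded leaf 13. COR15A and COR47 were at 0.88 and 0.84 after wounding, under the threshold of 1.

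The genes lie on all 5 nuclear chromosomes: 23 on chromosome 1 (31.5%, where 25.5% of all genes tested lie), 14 on chromosome 2, 13 on chromosome 3, 11 on chromosome 4 and 12 on chromosome 5 (16.4%, where 22.3% of genes tested lie). By gene order in the TAIR10.1 assembly, AT1G76590 and AT1G76600 are direct neighbours. They differed in leaf 8, where no-current leaves stood 1.85 above unwounded leaf 13 for AT1G76590 and 0.07 for AT1G76600. AT2G43535, CHI and AT2G43620 lie close together on chromosome 2, with 3 and 4 protein-coding genes between neighbours, as do AT1G69840 and AT1G69890, with 4 between.

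A single probe set measured 69 of the genes, and 4 had a pair of probe sets that were averaged. For AT1G31690 both moved alike, by 1.09 and 1.15 after wounding. For AT2G31010 they did not: 1 probe set had no-current leaf 8 at -0.03 from unwounded leaf 13 and the other at 1.44. After wounding the first was at 0.65, under the threshold of 1, and the other at 1.44. For AT3G22290 the brighter probe set was at 0.67 after current, past the threshold, and the dimmer at 0.13.

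Near the wound threshold, UGT71B1 and AT3G56360 were just inside, both at 1.01, and AT4G15680 and AT4G25770 just outside, at 0.997 and 0.994. Near the current threshold, AT5G40340 and AT1G77280 were just inside, at 0.49, and AT5G65380 and AT3G04010 just outside, at 0.50 and 0.51. These gaps are far smaller than their standard errors, which ran from 0.11 to 0.26.

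When the choice was repeated without each array in turn, 24 of the 73 genes were chosen all 12 times, and 1 gene, AT4G35985, as few as 8 times. The 24 include UGT76E12, BSMT1, ATPMEPCRB, LCR69, AT1G16850, AT5G62360, AT1G76590, AT1G11210 and AT1G51090, and 9 of them had no-current leaf 8 at least 1 above unwounded leaf 13. Leaving out current replicate 3 lost 18 genes and wounded replicate 3 lost 15. Leaving out current replicate 2 lost 0 and added 28, and leaving out wounded replicate 1 lost 0 and added 25.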

How the data were processed

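The deposited values are log2 RMA expression values; the submitters' processing notes name RMA and Affymetrix Power Tools as what the authors used; tool versions and the log base are not given in the sources used here, and the range from 1.46 to 13.3 is that of log2 RMA values. RMA equalises the distribution of intensities between arrays, so a shift shared by most genes is removed. The values were used as deposited, without a pseudocount or filter. Of 22810 probe sets, 13513 had 1 gene in the platform's table; probe sets of a gene were averaged, giving 13356 genes, of which 13286 matched the reference.

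The fit was limma 3.58.1 in R 4.3.3, with 1 mean per group over 12 arrays, two-sided, Benjamini-Hochberg adjustment over 13356 genes and a threshold of 0.05. It was tested on simulated data. The members, lists and tests were chosen with earlier results of these data known.

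Genes were named by rule: the 8 largest wound changes, the 4 lowest current changes, the 4 highest and 4 lowest differences between control leaves, and the 2 genes on each side of each threshold. No named functional group had 3 members, and no member was in a list. Genes with a symbol, the genes behind counts of 5 or fewer, AT1G76600, and those with several probe sets were named after their values were seen. Alternatives were quantile normalization, median centring, the brightest probe set, a filter on the dimmest 25% of genes, leaving out each array, fits per comparison, a robust trend, array weights, a replicate block and other thresholds. Promoter motifs were planned and not analysed here.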

Additional observations from a re-analysis of the deposited data

Results flagged for a closer look

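The wound change exceeded the current change by limma's test of the difference in 48 of the 73 genes, where 1.52% of all genes passed in that direction. The rule that chose the genes fixes this difference, so the count is a description of the chosen genes and no finding about them. It also passed in 48 of the 114 genes raised by both stimuli and in 52 of the 145 genes between.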

How the results depend on the processing

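The number of chosen genes was 60 to 101 without 1 array, 22 with a wound threshold of 1.5, and 25 or 10 with a current threshold of 0.25 or 0; the other 4 alternatives that repeat the choice gave 71 to 79. Members called higher after current, 3 in the report, were 1 with quantile normalization, 0 with each comparison fitted alone, 13 with array weights and 0 to 4 without 1 array (0 without no-current replicate 1 or 3); members called lower, 0 in the report, were 1 with array weights and 0 to 2 without 1 array. Members called lower in no-current leaf 8 were 2 to 6 without 1 array, with 2 reached without unwounded replicate 2. Calls higher in no-current leaf 8 (35 to 62), higher after wounding (60 to 100) and in the difference of responses (32 to 71) stayed within 1.5 times the reported counts in every alternative run, as did the direction of the medians: 1.22 to 1.38 after wounding, 0.28 to 0.34 after current and 0.56 to 0.76 between the control leaves. Same-numbered arrays did not deviate together (r from -0.07 to 0.05 over 9 pairs), so the numbers were not taken as pairs; with a replicate block the calls were 72, 3, 0, 50, 44 and 4 for higher after wounding, higher and lower after current, the difference, and higher and lower in no-current leaf 8. The cause of these shifts was not tested. The promoter alternative was not run. Signal near background limits the genes with the lowest values: 4 of 73 had an unwounded mean under 2.66, the lower quartile of all genes.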
